A study of Mus musculus with 6 samples.

Results

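The genes described here encode serum amyloid A (Saa1, Saa2, Saa3 and Saa4), the orosomucoids (Orm1 and Orm2), the short pentraxins (Crp and Apcs), haptoglobin (Hp) and lipocalin 2 (Lcn2), all plasma proteins of the acute phase response. They were examined in a list of accessible chromatin intervals made by ATAC-seq, an assay in which a transposase cuts and tags open DNA, from livers of mice that were male, wild type and fed a high-fat diet. The libraries came from 3 samples of 129S1/SvImJ and 3 samples of C57BL/6J, both inbred strains, and all 6 shared sex, genotype, tissue and diet. The list combined the strains and gave positions only, so no value for a strain or a library could be had and the strains were not compared. Depth and signal of each interval are unknown, and no spread between samples can be given for any value below. The labels call the transposed cells or material by an unexplained abbreviation and carry an antibody entry, Esrrg, that plays no part in this assay.

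The 10 genes were given by name, and their intervals were those overlapping the RefSeq gene span or the 10 kb on either side of it by at least 1 bp, on mm10. By this rule 30 distinct intervals belonged to the 10 genes, out of 120905 in the list. They made 37 gene and interval combinations, because 7 intervals fell within reach of a pair of neighbouring members and 23 within reach of a single one. Each gene had at least 2 and at most 6 intervals.

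In the acute phase response, the liver changes its output of plasma proteins after infection or injury. Interleukins of the IL-6 and IL-1 type, released by macrophages and other cells, act on hepatocytes through STAT3, NF-kB and C/EBP transcription factors, and glucocorticoids enhance many of these responses. Serum amyloid A proteins ride on high-density lipoprotein, orosomucoids bind drugs and lipids, pentraxins recognise microbial and damaged-cell surfaces, haptoglobin captures free haemoglobin, and lipocalin 2 withholds iron from bacteria by binding their siderophores. Crp is the classical acute phase protein of humans, whereas in mice Apcs, which encodes serum amyloid P component, responds more strongly.

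The promoter sequences printed first are those with an interval over the window from 250 bases before to 50 bases after the annotated start. They are from RefSeq on GRCm38.p6, the assembly also called mm10, read along the gene's strand, and capitals mark the bases that lie inside a deposited interval. Orm3, the third orosomucoid gene, is shown beside Orm2 because an interval near both Orm1 and Orm2 lies on its start.
Saa4, chr7:46732554-46732853, minus strand: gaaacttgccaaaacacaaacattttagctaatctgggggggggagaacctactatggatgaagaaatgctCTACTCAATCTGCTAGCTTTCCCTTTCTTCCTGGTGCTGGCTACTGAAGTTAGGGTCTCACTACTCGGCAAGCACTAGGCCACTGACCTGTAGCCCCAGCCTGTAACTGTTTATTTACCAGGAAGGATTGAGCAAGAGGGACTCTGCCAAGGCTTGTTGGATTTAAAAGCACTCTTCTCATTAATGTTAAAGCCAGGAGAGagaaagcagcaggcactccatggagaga
Orm2, chr4:63362199-63362498, plus strand: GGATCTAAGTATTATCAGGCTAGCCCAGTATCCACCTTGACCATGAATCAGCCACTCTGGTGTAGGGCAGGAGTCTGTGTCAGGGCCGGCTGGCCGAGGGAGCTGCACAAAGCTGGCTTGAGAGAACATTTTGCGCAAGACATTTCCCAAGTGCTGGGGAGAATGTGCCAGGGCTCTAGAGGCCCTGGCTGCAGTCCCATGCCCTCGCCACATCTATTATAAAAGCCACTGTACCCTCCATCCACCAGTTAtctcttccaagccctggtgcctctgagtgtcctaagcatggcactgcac
Orm3, chr4:63355908-63356207, plus strand: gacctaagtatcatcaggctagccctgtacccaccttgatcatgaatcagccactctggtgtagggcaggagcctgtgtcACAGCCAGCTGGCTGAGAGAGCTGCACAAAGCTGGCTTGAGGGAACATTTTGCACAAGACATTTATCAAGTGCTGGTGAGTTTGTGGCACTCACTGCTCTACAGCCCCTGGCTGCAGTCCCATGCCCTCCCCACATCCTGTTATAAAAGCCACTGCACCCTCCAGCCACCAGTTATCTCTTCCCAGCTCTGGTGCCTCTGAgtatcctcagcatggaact
Apcs, chr1:172895005-172895304, minus strand: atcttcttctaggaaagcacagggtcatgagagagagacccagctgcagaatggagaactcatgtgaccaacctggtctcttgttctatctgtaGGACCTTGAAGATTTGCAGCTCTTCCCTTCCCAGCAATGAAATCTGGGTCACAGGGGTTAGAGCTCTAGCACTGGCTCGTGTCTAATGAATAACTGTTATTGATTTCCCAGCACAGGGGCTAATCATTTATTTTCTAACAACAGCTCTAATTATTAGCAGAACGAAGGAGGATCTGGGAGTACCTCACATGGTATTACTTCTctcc
Lcn2, chr2:32387690-32387989, minus strand: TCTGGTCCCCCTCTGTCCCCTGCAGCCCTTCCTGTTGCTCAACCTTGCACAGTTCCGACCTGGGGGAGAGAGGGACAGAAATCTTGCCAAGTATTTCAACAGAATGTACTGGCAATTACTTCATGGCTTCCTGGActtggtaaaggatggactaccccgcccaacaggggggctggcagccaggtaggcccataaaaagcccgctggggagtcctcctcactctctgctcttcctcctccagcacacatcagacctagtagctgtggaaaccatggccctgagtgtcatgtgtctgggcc
Crp, chr1:172697806-172698105, plus strand: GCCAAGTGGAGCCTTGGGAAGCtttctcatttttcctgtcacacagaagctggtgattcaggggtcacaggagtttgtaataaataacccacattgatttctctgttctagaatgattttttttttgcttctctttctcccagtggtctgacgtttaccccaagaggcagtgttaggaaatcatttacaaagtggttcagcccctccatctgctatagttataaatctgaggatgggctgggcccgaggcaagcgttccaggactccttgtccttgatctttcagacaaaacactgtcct

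Saa1 and Saa2, the main inducible serum amyloid A genes of liver, had no interval over this window. Their windows are shown as a pair because they are close copies, and capitals here mark the bases that differ between them in a global alignment.
Saa1, chr7:46742931-46743230, minus strand: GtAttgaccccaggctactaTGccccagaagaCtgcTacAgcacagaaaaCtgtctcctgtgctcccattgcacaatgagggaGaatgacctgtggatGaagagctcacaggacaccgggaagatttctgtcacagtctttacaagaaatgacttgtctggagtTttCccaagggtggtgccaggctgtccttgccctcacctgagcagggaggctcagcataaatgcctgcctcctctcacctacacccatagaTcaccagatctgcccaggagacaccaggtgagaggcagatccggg
Saa2, chr7:46751583-46751882, plus strand: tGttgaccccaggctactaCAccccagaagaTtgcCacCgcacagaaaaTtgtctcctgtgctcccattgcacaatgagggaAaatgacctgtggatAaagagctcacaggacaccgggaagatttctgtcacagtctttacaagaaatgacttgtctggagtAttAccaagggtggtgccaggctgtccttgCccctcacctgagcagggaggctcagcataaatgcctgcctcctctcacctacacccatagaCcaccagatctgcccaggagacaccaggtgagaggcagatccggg

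The 2 windows were identical at 287 of 301 alignment columns (95.3%), with 12 substitutions and 2 gap columns. Saa3 and Saa4 were no closer than 54.2% to Saa1 or to each other, and Orm2 and Orm3 were identical at 86.6% of 305 columns. Reads from close copies can be hard to place uniquely. How the authors treated such reads is not given in the sources used here, and its part in the intervals listed at Saa1, Saa2 and the orosomucoid genes was not tested.

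Accessible intervals lay over the promoter windows of Saa4, Orm2, Crp, Apcs and Lcn2, and not over those of Saa1, Saa2 or Saa3. The Saa3 window lies inside its span, and an interval did overlap the end where that span begins. Of the 8 members with a promoter window in the RefSeq table, 5 had an interval over it. The share in all 17492 protein-coding genes with such a window was 52.1%, where a gene with several annotated starts counted if any of them was covered, so 5 of 8 is near the background. With intervals wider than the narrowest alone, 4 of 8 members had one, against 44.4% of those genes. Hp and Orm1 are described by the ends of their spans.

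**Figure D1:**
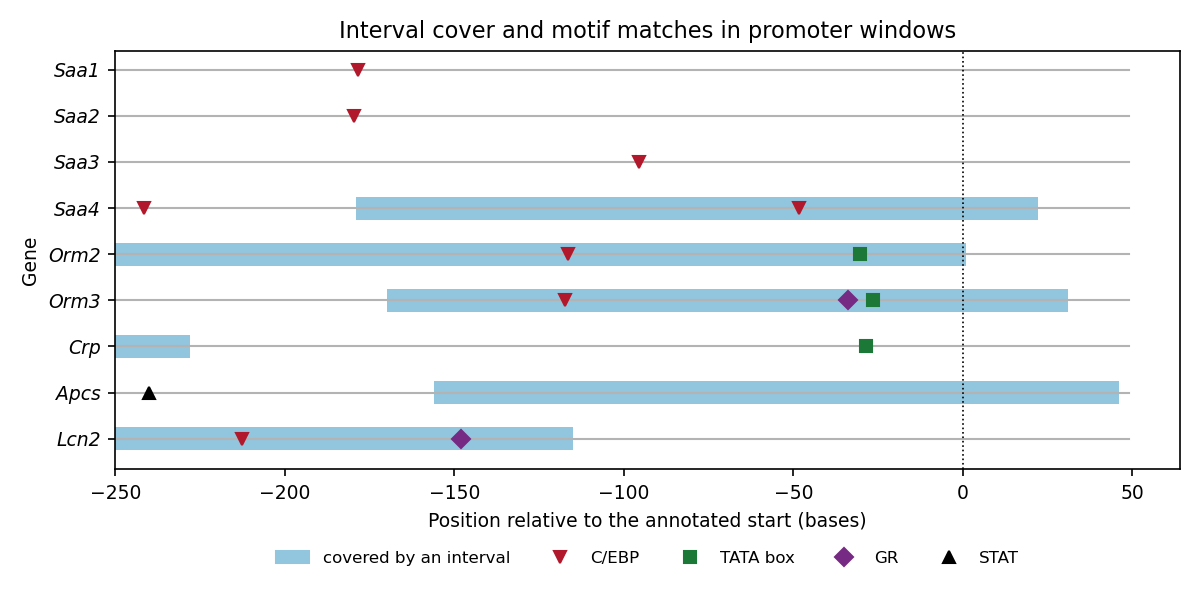
Interval cover and motif matches in the promoter windows of the 8 members in the table and of Orm3. The x axis gives the position in bases relative to the annotated start, which is at 0 and dotted, the pale bars are the parts inside a deposited interval, and symbols mark matches to C/EBP, TATA box, glucocorticoid receptor (GR) and STAT motifs. The Saa1, Saa2 and Saa3 rows have no bar, the Crp bar covers 22 bases at the distal edge, and the Orm2 bar stops at the start.

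Intervals also lay at the gene ends of most members. Of the 10 members, 8 had an interval overlapping the 1 kb to either side of an end of the gene span, against 61.5% of 21887 protein-coding genes. Saa1 and Saa2 were the members without one. All 10 members had an interval in the wider window of the span plus 10 kb, against 83.9% of protein-coding genes. The median was 4 intervals per member and 3 per protein-coding gene (quartiles 1 and 5). The members are short genes, with spans of 1094 to 7618 bp. Among the 6688 protein-coding genes with spans no longer than that, a restriction chosen after the values were seen, the median was 1 (quartiles 0 and 3), 66.5% had an interval in the window and 41.6% had one at an end. Neighbouring members share intervals, so the 10 counts are not independent.

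**Figure D2:**
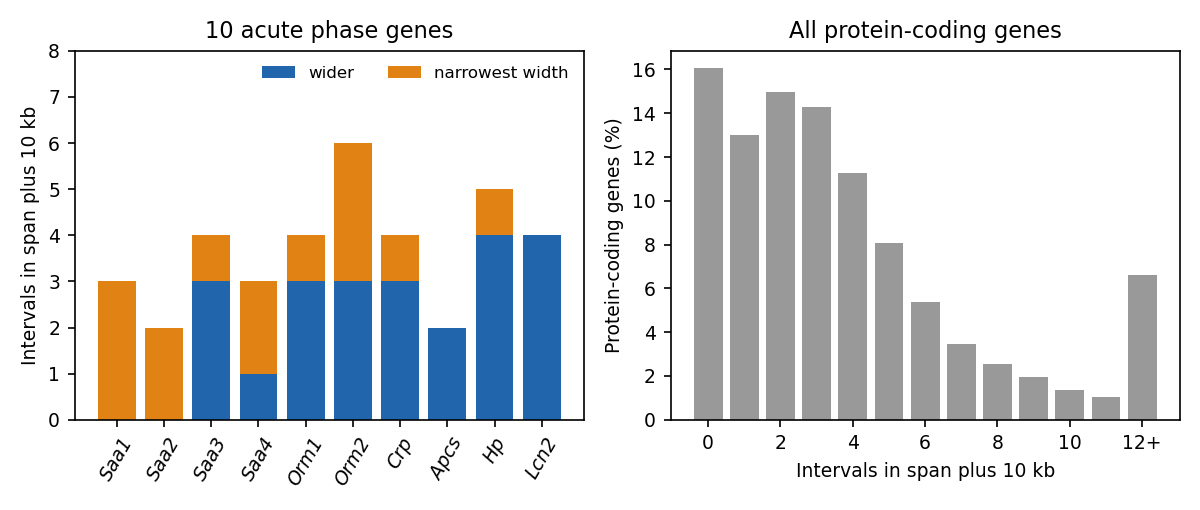
Number of intervals in the gene span plus 10 kb for each member (left, stacked by width) and the distribution over all 21887 protein-coding genes (right, percent of genes, the last bar holding genes with 12 or more). Members have 2 to 6 intervals, and those of Saa1 and Saa2 all have the narrowest width of 201 bp.

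Intervals of the narrowest width made up a minority of those near the members. Of the 30, 9 (30.0%) were exactly 201 bp wide, against 46.2% of all intervals, and the median width was 208 bp against 203 bp. The widest, at 390 bp, lay 5517 bp outside the lower-coordinate end of Orm1. Within the members the narrow intervals were unevenly spread. All intervals near Saa1 and Saa2 and 2 of the 3 near Saa4 were 201 bp wide, whereas all 4 near Lcn2 and both near Apcs were wider.

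Many of these intervals lay at other genes. Of the 30, 9 overlapped a member or came within 1 kb of an end of its span, and 7 of these overlapped a member's span. Another 13 were inside a different annotated gene or within 1 kb of its end, and 8 were between genes. How the intervals of the whole list divide in this way was not counted, so the split has no background beside it. Of the 9, 2 also lay in or at another gene. Saa1 and Saa2 had no interval in the span or within 1 kb of its ends, Saa3 had 2, and each of the other 7 members had 1.

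**Figure D3:**
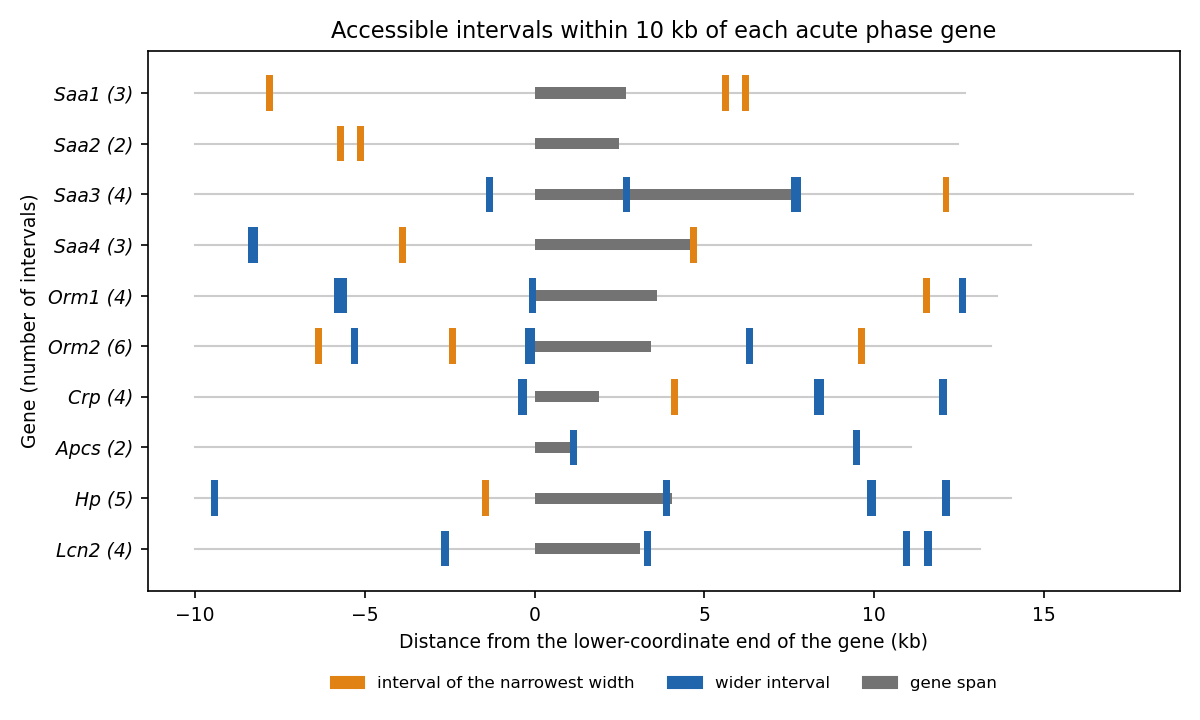
Intervals in the window of each member, from 10 kb below to 10 kb above its span, drawn to scale in kb from the lower-coordinate end of the gene, with the number of intervals in brackets. Grey bars are gene spans, orange marks are intervals of 201 bp and blue marks are wider ones. An interval touches or lies within 1 kb of an end in every row but those of Saa1 and Saa2.

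The serum amyloid A genes lie together on chromosome 7, where Saa3, Saa4, Saa1 and Saa2 follow each other from 46711998 to 46754313 with the pseudogene Saa-ps between Saa4 and Saa1. Over these 42.3 kb the list held 6 intervals. Saa1 and Saa2 have opposite strands and start sites that face each other. The intervals nearest to either start were a pair in the space between them, at chr7:46746020-46746220 and chr7:46746604-46746804, both 201 bp wide. The nearer of the pair to Saa1 was centred 3140 bases before its start, and the nearer to Saa2 5129 bases before its own. These were the only intervals that Saa2 had. Among the 17492 protein-coding genes with an annotated start, the median distance to the nearest interval centre was 216 bases. For a gene with several annotated starts the shortest distance was taken, whereas a single start was used for each member. A shorter distance than that of Saa1 was found for 67.8% of these genes, and than that of Saa2 for 72.1%.

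Beyond the pair no further interval followed for 24.0 kb, so that the whole of Saa2 and the lower-coordinate end of Hps5, its neighbour with a role in lysosome-related organelles, lay in a stretch without intervals. The median stretch between successive intervals in the list was 10.3 kb, and 75.8% of stretches were shorter than this one. Saa1 also had the interval of the Saa4 promoter within its 10 kb window, 7714 bp below its span.

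**Figure D4:**
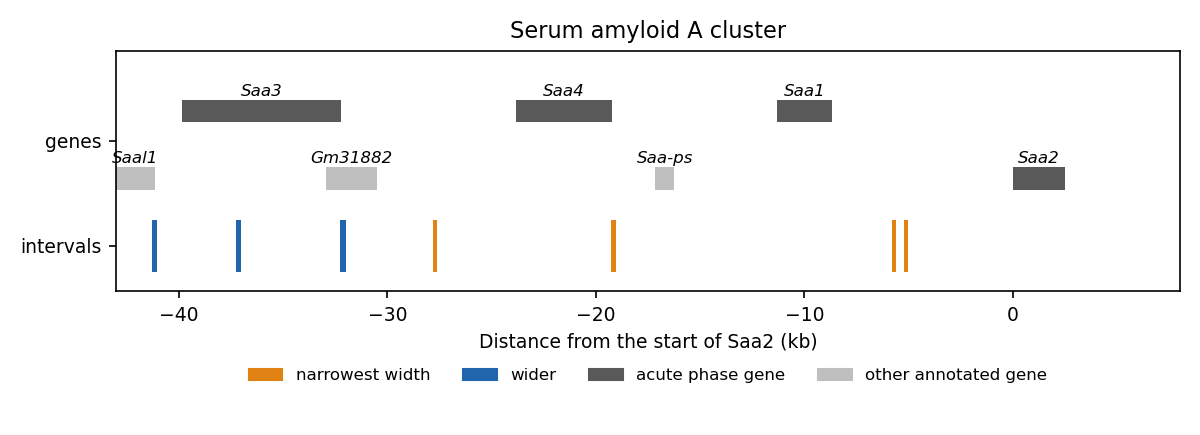
Map of the serum amyloid A cluster in kb from the start of Saa2, with members in dark grey, other annotated genes in pale grey and intervals below them (orange, 201 bp wide; blue, wider). The pair of intervals between Saa1 and Saa2 and the stretch without intervals over Saa2 are visible at the right, and the 3 wider intervals all lie at the left, around Saa3.

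Saa4, the constitutively expressed member of the family, was the serum amyloid A gene with an interval on the annotated start used for its promoter window. This interval, chr7:46732582-46732782, was 201 bp wide, lay wholly in the promoter window and was centred 79 bases before the start, reaching 22 bases into the gene. The other intervals of Saa4 lay below its span, 3776 and 8144 bp away, and both were also within reach of Saa3.

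Saa3, which in mice is expressed in macrophages, adipose tissue and other sites outside hepatocytes as well as in liver, had 4 intervals, 3 of them wider than 201 bp. The annotated start used for its promoter window lies inside its span at 46715676. The nearest interval, chr7:46714597-46714803 (207 bp), was centred 976 bases after that start, inside the gene. Saa3 is on the minus strand, so its span begins at the upper-coordinate end. A 299 bp interval at chr7:46719549-46719847 overlapped the 67 bases at that end and the lncRNA Gm31882. It was centred 4022 bases before the start used for the promoter window. The remaining ones were a 219 bp interval at the end of Saal1, a neighbouring gene, 1210 bp below the span, and a 201 bp interval 4399 bp above it, between genes.

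The orosomucoid genes encode alpha-1-acid glycoproteins and lie on chromosome 4 in the order Orm1, Orm3 and Orm2, with the pseudogene Gm11212 between Orm1 and Orm3. All 3 genes had an interval over the lower-coordinate end of the span. At Orm1 this was chr4:63344381-63344591 (211 bp), which held the first 36 bases of the span and also overlapped the end and the promoter window of the lncRNA Gm52743, so that it cannot be given to either gene alone. At Orm2 it was chr4:63362177-63362449 (273 bp), centred 136 bases before the start and ending on the first base of the gene. At Orm3 it was chr4:63355988-63356188 (201 bp), centred 70 bases before the start and wholly inside the promoter window.

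Orm2 had 6 intervals, the most of any member. Besides the one at its start, a 204 bp interval inside Orm3, the interval on the start of Orm3 and a 201 bp interval 2305 bp below Orm2 lay on one side. The last of these was also within 1 kb of an end of Orm3. The other side held 2 intervals inside Akna, a gene for a centrosomal and AT-hook protein, which were 2787 and 6105 bp above the span. Orm1 shared the interval on the start of Orm3 and the one inside Orm3 with Orm2, and had its own 390 bp interval in Gm52743. Between the intervals at the ends of Orm1 and Orm3 there was a stretch of 11.4 kb with none, which held most of Orm1 and the pseudogene.

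**Figure D5:**
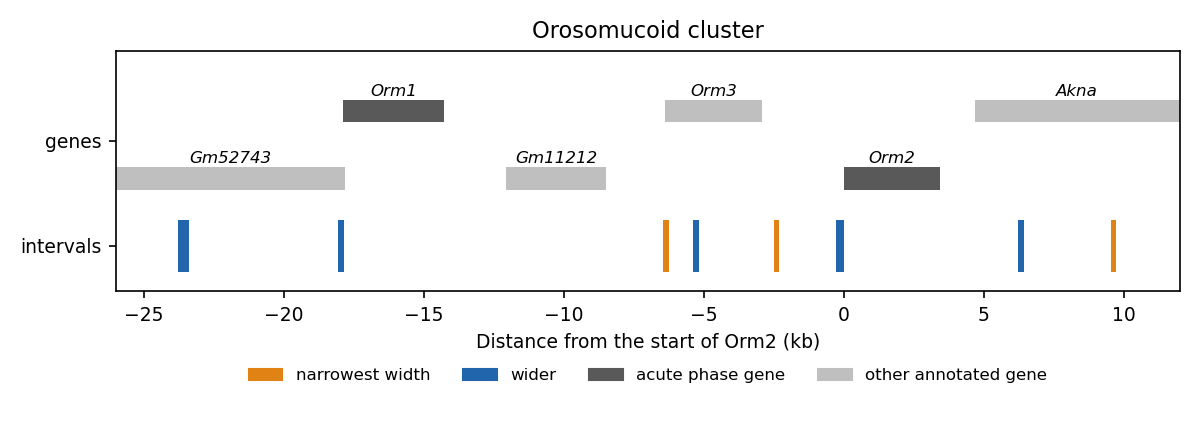
Map of the orosomucoid cluster in kb from the start of Orm2, with members in dark grey, other annotated genes in pale grey and intervals below them (orange, 201 bp wide; blue, wider). An interval stands at the left end of each of the 3 Orm genes, and the wider ones at Orm1 and Orm2 measure 211 and 273 bp.

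The short pentraxin genes Crp and Apcs lie apart from each other on chromosome 1, and neither had another annotated gene within 10 kb. None of their 6 intervals lay in another annotated gene or within 1 kb of its end. Whether any of the 6 was within 10 kb of a more distant gene was not counted. Apcs had a 202 bp interval at chr1:172895009-172895210, which lay wholly in the promoter window and reached 46 bases into the gene. Its only other interval was 210 bp wide and 8285 bp away on the promoter side, and on the other side none lay within 10 kb. The stretch without intervals that ended at the Apcs promoter was 27.0 kb long, and 78.7% of all stretches in the list were shorter.

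Crp had 4 intervals, none of them inside the gene. The nearest, chr1:172697563-172697827 (265 bp), was centred 361 bases before the start and ended 228 bases short of it, so only 22 of its bases lay in the promoter window. When the centre of an interval had to lie in the window, Crp no longer counted. The other 3 followed after the gene, 2103, 6332 and 9988 bp beyond its span, and were 201, 279 and 249 bp wide. Apcs thus had an interval over its start, and the interval nearest to Crp stood before it.

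Hp lies on chromosome 8 from 109575128 to 109579172. Of its 5 intervals, a 212 bp one at chr8:109578918-109579129 lay wholly inside the gene, centred 148 bp from the upper-coordinate end. Another 2 lay in genes on the lower side. One of 207 bp, 9321 bp from Hp, lay in Dhx38, an RNA helicase gene of splicing, and over the promoter window of Txnl4b, also a splicing factor gene, and one of 201 bp, 1354 bp from Hp, lay in Txnl4b. On the upper side a 248 bp interval, 5748 bp away, was within 1 kb of the end of the lncRNA Gm39247, and a 223 bp interval, 7961 bp away, lay between genes.

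Lcn2 lies on chromosome 2 from 32384637 to 32387739 and had 4 intervals, none inside the gene. The interval at its promoter, chr2:32387855-32388063 (209 bp), was centred 220 bases before the start and covered 135 bases of the window without reaching the start. The other 3 lay at neighbours. One of 214 bp covered part of the promoter window of 1110008P14Rik, 2532 bp from Lcn2. The remaining ones, 7758 and 8351 bp away, were at Ptges2, the gene of a prostaglandin E synthase, and the nearer of them, 202 bp wide, overlapped its promoter window.

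The promoter windows were searched on both strands for 7 motifs of factors known in hepatocyte and acute phase gene control. The C/EBP motif TTGCNNAA was found in 6 of the 8 members' windows, and in 10.8% of all 32851 windows of 300 bases in the table. The members with a match were Saa1, Saa2, Saa3, Saa4, Orm2 and Lcn2, and the pentraxin genes had none. Saa1 and Saa2 held the same match, TTGCACAA, at -182 to -175 and at -183 to -176, counted from the start as 0, in close copies that are not independent, and outside any interval. Saa3 held TTGCATAA on the opposite strand at -99 to -92, likewise outside any interval.

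In 3 members a C/EBP match lay inside the interval at the promoter. The share of all windows with a C/EBP match inside an interval was not counted, so this count has no background beside it. Orm2 held TTGCGCAA at -120 to -113, and its copy Orm3, which is no member, held TTGCACAA at -121 to -114. Saa4 held TTGCTCAA on the opposite strand at -52 to -45, with a further match, TTGCCAAA, outside the interval at -245 to -238. Lcn2 held TTGCTCAA at -216 to -209. Matches on the gene's strand can be read in the printed windows as they stand, and those on the opposite strand as their reverse complement. Matches inside an interval are in capitals, and the Saa3 window is not printed.

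The other motifs were rarer among the members. The TATA box, searched as TATAAA, was in 2 of 8 windows and in 13.6% of all windows, at -33 to -28 in Orm2 and at -31 to -26 in Crp. The STAT motif TTCNNNGAA was in 1 of 8 and in 8.30% of all, at -244 to -236 of Apcs, outside its interval. This motif is its own reverse complement, so the match lies on both strands and reads TTCCTAGAA on the opposite one. The glucocorticoid receptor motif ACANNNTGT was in 1 of 8 and in 6.85% of all, as ACAGAATGT inside the interval of Lcn2. The NF-kB consensus (4.51% of all windows), the HNF1 motif GTTAATNAT (0.801%) and the FOXA motif TGTTTAC (3.65%) were in none of the 8. A match is not evidence of binding, and looser forms of these motifs were not searched. No other motif overlapped a C/EBP match in these windows.

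The composition of the windows was also counted. The members' windows held 1 to 5 CG dinucleotides (median 3), against a median of 7 over all windows (quartiles 3 and 20). GC content was 45.0% to 56.3% (median 50.2%), against a median of 52.7% (quartiles 45.7% and 61.7%).

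Other acute phase genes and the factors that control them gave a frame for these counts. The acute phase list includes Orm3, which shares intervals with the members Orm1 and Orm2. Of 25 further acute phase and plasma protein genes 24 were found in the gene table. All 24 had an interval within 10 kb, against 83.9% of all protein-coding genes, and their median was 5, against 3. Those with the most were Cp, the ceruloplasmin gene, with 10, followed by C3, the central complement component, and Lbp, the lipopolysaccharide-binding protein gene, with 6 each, a count that Mt2, Serpina1a and Serpina3n also reached. An interval overlapped the promoter window in 13 of the 19 genes of this list that had such a window (68.4%), against 52.1% of all protein-coding genes. At an end of the span 23 of the 24 had an interval, against 61.5% of all, the exception being the fibrinogen gene Fgb. The 19 receptor, signalling and transcription factor genes had a median of 6, all with at least 2, against the same 83.9% with an interval and median of 3. Of these genes 13 of 15 (86.7%) had an interval at the promoter, against the same 52.1%. Jak1 had 19, and the interleukin 1 receptor genes Il1r1 and Il1rap had 17 and 15. Counts were not adjusted for length, and Jak1 spans 113 kb.

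Markers of the labelled tissue and of other cells that can express Lcn2 or Saa3 were counted in the same way. The hepatocyte genes Alb, Ttr, Apoa1, Serpina1a, Ahsg and Fgb are also in the acute phase list above, so these lists are not independent. All 8 hepatocyte genes had an interval within 10 kb (median 4), as did 5 of 6 macrophage genes (median 3), 2 of 6 neutrophil genes (median 0) and 3 of 6 T and B cell genes (median 0.5), against 83.9% of all protein-coding genes (median 3). Over the promoter window an interval lay in 2 of 6 hepatocyte genes (33.3%), 2 of 4 macrophage genes (50.0%), 1 of 6 neutrophil genes (16.7%) and 0 of 4 T and B cell genes, against 52.1% of all. Among the neutrophil genes S100a8 had 4 and Elane 6, and Camp, Ly6g, Mpo and S100a9 had none. Among the macrophage genes Adgre1 had none, and among the lymphocyte genes Cd3d, Cd8a and Ms4a1 had none. In a list combined over the liver libraries the cell type that carried each interval near Lcn2 or Saa3 was not tested.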

How the data were processed

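ATAC-seq of liver gave 1 list of intervals that the authors deposited for all 6 libraries together, as chromosome, start and end without header, score or count. The submitters' processing notes name fastp, Bowtie2, HOMER and the build mm10. No source used here gives their settings, any correction of read ends for the transposase offset, the handling of duplicates and multiply placed reads, the peak threshold or the rule for combining libraries. An unknown threshold decides which weak sites are listed.

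Starts were made 1-based. Gene spans, promoter windows and sequences came from RefSeq tables of GRCm38.p6. All 10 members matched by symbol in the gene table, and 8 of them in the promoter table. Exons were not used here. An interval counted for a window when it overlapped it by at least 1 bp. Promoters were aligned globally with Biopython 1.88 (match 1, mismatch -1, gap opening -2, gap extension -0.5), and tables were made with pandas 2.3.3 under Python 3.11.15. The overlap count was tested on simulated data.

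Since no column belongs to a library, the planned comparison of 129S1/SvImJ with C57BL/6J was not run and no p-value is given. Whether each replicate was a separate animal is not stated in the labels. The members, gene lists, motifs and markers were chosen with earlier results of these data known. All 10 members are named. The 3 genes with the most intervals are named for the acute phase and regulator lists, and any genes with none for every list. Alternatives were other flanks, other windows, interval centres, joined intervals and removal of the narrowest intervals.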

Additional observations from a re-analysis of the deposited data

How the results depend on the processing

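The number of distinct intervals followed the flank, being 7 with flanks of 0 kb, 18 with 5 kb and 70 with 50 kb in place of 30 with 10 kb, as wider windows hold more. With flanks of 0 kb the members with an interval numbered 6 in place of 10, and with 5 kb they numbered 9, losing Saa2. Interval centres, joining within 500 bp and removal of the 201 bp intervals gave 29, 28 and 21 distinct intervals. Without the 201 bp intervals 8 of 10 members had one in the window. The count at promoters was 4 with interval centres, losing Crp, 5 with joined intervals, 4 without the 201 bp intervals, losing Saa4, and 6 with 1 kb to either side of the start, gaining Saa3. The count at gene ends was 7 without the 201 bp intervals, 8 with windows of 500 bp, and 9 with 5 kb. For these alternatives the share of all protein-coding genes was counted only at promoters without the 201 bp intervals (44.4%). Whether the members moved from the background under the others was not tested.

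No paired analysis was possible because the list holds no value for a library, and for the same reason leaving out a replicate was not run. Depth is unknown, so a gene without an interval is one at which none passed the authors' unknown threshold.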

Other observations

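The neighbouring neutrophil calprotectin subunit genes S100a8 and S100a9 differed in the list. There were 4 intervals in the span plus 10 kb of S100a8, at least 1 of them at its promoter window, and 0 for S100a9. The C/EBP genes themselves had 2 intervals (Cebpa), 4 (Cebpb) and 3 (Cebpd), against a median of 3 over all protein-coding genes. These genes were chosen after their values were seen, and no explanation was tested.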
